A study of Homo sapiens with 12 samples.

Results

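The loci described here are 7 regions of the genome where common variants are associated with fatty liver or with blood triglycerides, named after PNPLA3, HSD17B13, TM6SF2, MBOAT7, GCKR, TRIB1 and LIPC. They were examined in HepG2, an established cell line of a human liver cancer, grown in a medium with fetal bovine serum and given no treatment. Fixed chromatin was immunoprecipitated with antibodies to H3K27ac, H3K4me1 or H3K4me3 and sequenced (ChIP-seq), and 3 libraries were made per mark. A further group of 3 control libraries was titled as input, while its antibody label named an anti-mouse IgG, so that the kind of control is uncertain. The stated purpose of the series was to rank candidate causal variants by these marks. HepG2 is 1 tumour-derived line, and the labels do not say whether the 3 libraries came from separate cultures.

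Members were taken by position alone, not by signal, though this choice was made with earlier results of these data known. Every peak of the 3 pooled lists that had at least 1 bp within 30 kb of a gene was taken, in GRCh37. For PNPLA3 the distance ran from the gene start only, and for TRIB1 the region was followed to position 126550000 of chromosome 8, beyond 30 kb past the gene. This gave 223 of the 273551 peaks on chromosomes 1 to 22 and X. They were 55 of 66513 H3K27ac peaks, 145 of 182592 H3K4me1 peaks and 23 of 24446 H3K4me3 peaks. At the edge of a region the choice depended on small distances. The outermost PNPLA3 member was an H3K4me1 peak at 28.2 kb with a signal value of 2.70, while an H3K4me1 peak of 3.62 and an H3K4me3 peak of 45.5 lay 125 and 341 bp outside the region.

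Liver cells take up, make, store and export triglyceride, and the 7 genes act at different steps. PNPLA3 and HSD17B13 encode proteins of the lipid droplet, TM6SF2 a membrane protein needed to load very low density lipoprotein with lipid, and MBOAT7 an enzyme that attaches arachidonic acid to lysophosphatidylinositol. GCKR encodes the protein that holds glucokinase inactive in the nucleus, TRIB1 a pseudokinase that directs the transcription factor C/EBP alpha to degradation, and LIPC hepatic lipase, which is secreted and digests lipoprotein lipid. H3K4me3 is found mainly at promoters, H3K4me1 at enhancers and beside promoters, and H3K27ac at active promoters and enhancers.

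The promoters themselves differed in sequence, and 4 are printed because they span the range from CpG-rich to nearly CpG-free. RefSeq's GRCh38.p14 promoter table (250 bases before to 50 after the gene start) matched 5 of the 7 genes, and was used for sequence only, since the peaks are in GRCh37. Capitals mark CG dinucleotides. For LIPC the RefSeq start may not be the start used for the region, since RefSeq's model is 20345 bp shorter than the interval, so its promoter is not set beside the marks at that start. The windows are chr19:54189531-54189830 (minus strand) for MBOAT7, chr4:87322833-87323132 (minus) for HSD17B13, chr2:27496589-27496888 (plus) for GCKR and chr15:58431741-58432040 (plus) for LIPC.
MBOAT7: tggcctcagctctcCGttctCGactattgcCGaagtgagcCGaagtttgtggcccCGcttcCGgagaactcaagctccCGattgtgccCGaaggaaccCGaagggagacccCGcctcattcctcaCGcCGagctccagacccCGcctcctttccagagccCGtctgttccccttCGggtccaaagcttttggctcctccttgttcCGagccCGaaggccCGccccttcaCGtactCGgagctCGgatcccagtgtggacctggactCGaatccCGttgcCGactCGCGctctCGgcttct
HSD17B13: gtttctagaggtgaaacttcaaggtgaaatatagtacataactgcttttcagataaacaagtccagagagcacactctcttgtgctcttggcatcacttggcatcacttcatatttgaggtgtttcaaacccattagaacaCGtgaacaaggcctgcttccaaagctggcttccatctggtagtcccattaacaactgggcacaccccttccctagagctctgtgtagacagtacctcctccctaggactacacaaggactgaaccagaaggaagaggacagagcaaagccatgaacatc
GCKR: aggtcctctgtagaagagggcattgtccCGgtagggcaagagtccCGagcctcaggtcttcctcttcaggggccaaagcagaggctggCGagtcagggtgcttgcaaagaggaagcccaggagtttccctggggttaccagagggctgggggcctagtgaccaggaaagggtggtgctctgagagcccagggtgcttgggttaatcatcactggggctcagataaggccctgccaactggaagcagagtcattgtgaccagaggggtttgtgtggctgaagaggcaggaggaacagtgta
LIPC: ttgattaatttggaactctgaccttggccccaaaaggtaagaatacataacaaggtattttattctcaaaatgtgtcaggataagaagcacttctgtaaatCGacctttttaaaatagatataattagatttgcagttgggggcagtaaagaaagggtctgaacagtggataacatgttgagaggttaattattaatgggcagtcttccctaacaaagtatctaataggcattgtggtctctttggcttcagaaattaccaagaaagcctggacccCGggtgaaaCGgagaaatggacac

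The MBOAT7 window held 27 CG dinucleotides and that of TM6SF2, which is not printed, 24. HSD17B13 held 1, and GCKR and LIPC held 3 each, against a median of 14 over the 35116 promoters of the table. The ratio of observed to expected CG was 0.960 for MBOAT7 and 0.681 for TM6SF2, but 0.0639 for HSD17B13, 0.127 for GCKR and 0.282 for LIPC. A set of 6 motifs was searched on both strands. GGGCGG, the GC box, occurred at 3 places in TM6SF2 and 1 in MBOAT7 and in no CpG-poor promoter, against 45.0% of all promoters. HSD17B13 also held CACGTG, an E-box, 111 bases before its start (7.26% of all promoters), and LIPC held AGGTCA, letters bound by many nuclear receptors, 232 bases before (13.8%). CCAAT occurred in TM6SF2 alone (34.6% of all promoters), whereas TATAAA and TGTTTAC were in none of the 5 (11.5% and 3.42%). Such matches are letters in a window and not measured binding.

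Active promoter marks lay over the start of most of these genes. H3K4me3 covered the gene start at 6 of 7 loci, all but HSD17B13. Of all genome positions, 1.49% lie inside an H3K4me3 peak and 3.00% within 1 kb of one. H3K27ac covered the start at 5 of 7, the exceptions being HSD17B13 and LIPC (3.04% of positions inside a peak, 6.04% within 1 kb). H3K4me1 came within 1 kb of the start at 6 of 7 (14.3% of positions within 1 kb). It lay over the start itself at LIPC only. These percentages are for positions and not for gene starts, so they give no comparison with other genes. No list has replicate values, so no difference between loci could be set against the spread between libraries.

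The strength of the mark at the start differed widely between the genes. In the list of H3K4me3, the authors' signal value of the peak over the start was 61.0 at TRIB1, 46.1 at MBOAT7, 43.6 at GCKR, 27.8 at TM6SF2, 24.7 at PNPLA3 and 2.77 at LIPC. These stood at percentiles 94.7, 80.2, 77.0, 61.4, 59.0 and 18.3 of the list. For H3K27ac the values were 50.7 at MBOAT7, 41.7 at TRIB1, 21.3 at GCKR, 11.3 at PNPLA3 and 5.46 at TM6SF2, at percentiles 98.8, 97.6, 88.8, 79.2 and 66.1. TRIB1, MBOAT7 and GCKR were thus the upper 3 in both lists, while the order of neighbours (TRIB1 with MBOAT7, PNPLA3 with TM6SF2) was not the same. GCKR stood high in both, and the promoter window at its start was CpG-poor. By distance from the start, its H3K27ac summit (182 bp upstream) lay inside that window and its H3K4me3 summit (1941 bp upstream) outside it. CG dinucleotides under the H3K4me3 summit were therefore not counted. The peaks also do not tell GCKR from its upstream neighbour FNDC4, or MBOAT7 from its upstream neighbour TSEN34. Signal values are the peak caller's own and were read only within a list.

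**Figure D1:**
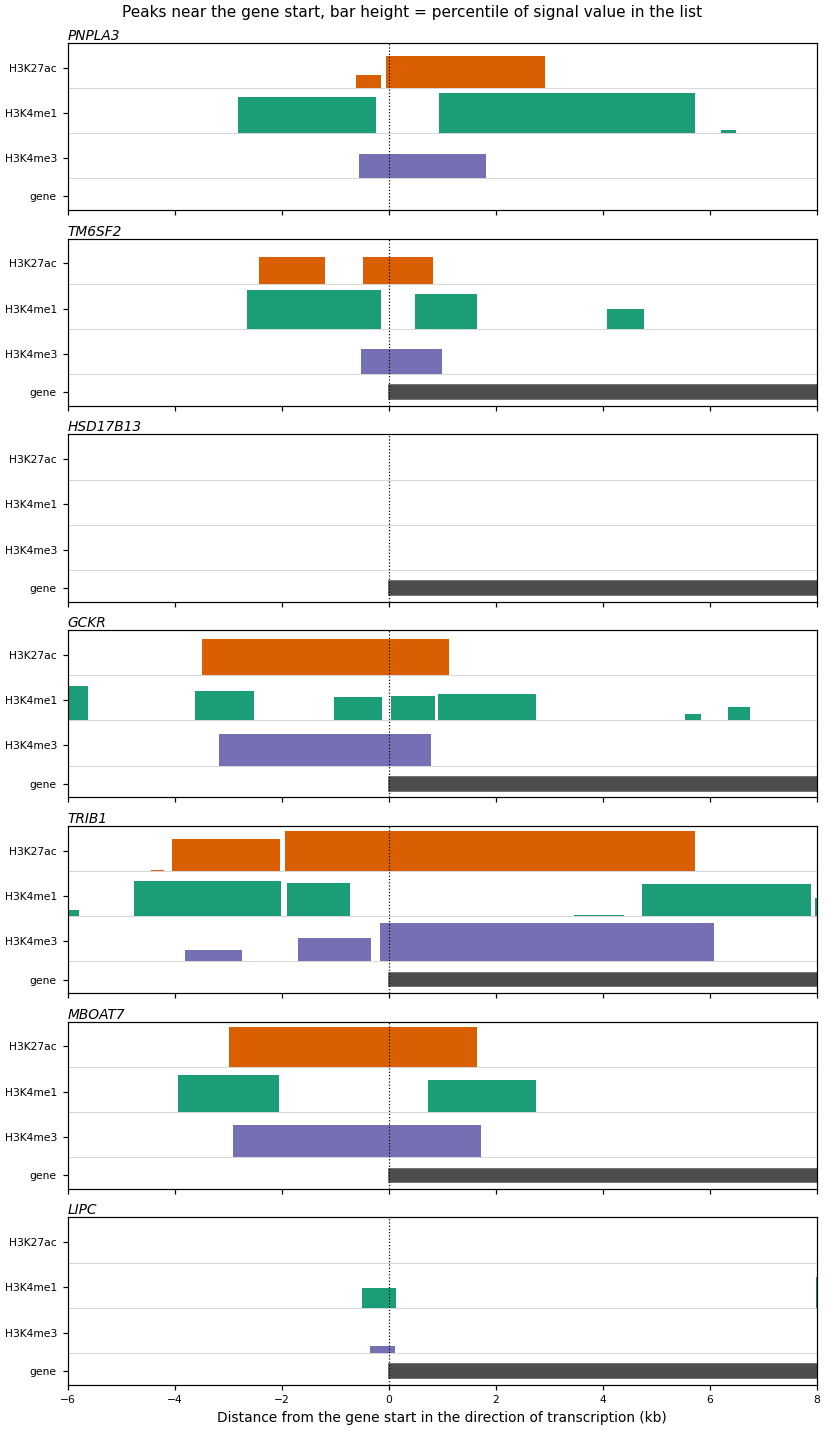
Peaks of the 3 lists from 6 kb before to 8 kb after the start of each gene, in the direction of transcription (x axis, kb), with bar height giving the percentile of the signal value in its list and the grey bar the gene (no gene end was used for PNPLA3). H3K4me3 spans the start at 6 loci, H3K4me1 sits to either side at PNPLA3, TM6SF2, GCKR, TRIB1 and MBOAT7, and HSD17B13 has no peak.

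At PNPLA3, a triglyceride and retinyl ester hydrolase of lipid droplets, H3K4me3 and H3K27ac formed 1 compact domain at the start. One H3K4me3 peak (chr22:44319057-44321440, 2384 bp) reached from 562 bp before to 1821 bp after the start, with its summit 643 bp inside the gene. H3K27ac ran over it (chr22:44319565-44322531, signal value 11.3), from 54 bp before to 2912 bp after, and a weak peak of 2.31 lay just before it. The H3K27ac summit was 1616 bp past the start, so acetylation and trimethylation were both strongest inside the gene.

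H3K4me1 flanked this domain on both sides and left 1181 bp around the start free. The upstream flank was 2579 bp wide with a signal value of 6.17 (percentile 89.2). The downstream flank (chr22:44320565-44325346, 4782 bp) had 12.4, at percentile 99.8 the strongest H3K4me1 peak of all 145 members. The other 4 H3K4me1 members were weak, from 2.37 to 3.02, and overlapped no other mark. Upstream, acetylation and H3K4me3 were sparse. No further H3K27ac peak was listed before the region for 514534 bp and no H3K4me3 peak for 705193 bp. RefSeq names SAMM50, a mitochondrial membrane assembly gene, as the coding neighbour downstream.

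HSD17B13, a short-chain dehydrogenase of the lipid droplet made mainly in liver, carried no mark over its start or anywhere in its 19118 bp. The region of 79.1 kb held 2 peaks in all. They overlapped each other 23692 bp and more past the end of the gene: an H3K4me1 peak (chr4:88198358-88201249, signal value 7.55, percentile 95.01) and an H3K27ac peak (chr4:88198970-88200446, 4.44, percentile 61.3). From the gene start the nearest peaks were 34.3 kb away for H3K4me1 (2.87), 38.9 kb for H3K27ac (1.91) and 63.8 kb for H3K4me3 (40.4), all outside the region. RefSeq names HSD17B11 as the coding neighbour upstream, and the peaks do not tell which gene they belong to. Along the genome as a whole, windows of this size without a peak of a given mark were common. Of 38364 consecutive windows of the same length, 67.0% had no H3K4me3 peak, 61.0% no H3K27ac peak and 39.6% no H3K4me1 peak. The windows were laid along full chromosome lengths, whether or not they held a gene, so they give no comparison with regions around other genes. H3K4me1 covered 3.66% and H3K27ac 1.87% of the HSD17B13 region, below the 6.47% and 3.04% of the genome. HSD17B13 was the only member locus below the genome in these marks, and in H3K4me3 with 0%.

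At TM6SF2, a membrane protein of the endoplasmic reticulum and Golgi, the promoter was narrow. The H3K4me3 peak (chr19:19383075-19384594, 1520 bp) ran from 520 bp before to 999 bp after the start, with a signal value of 27.8. The H3K27ac peak over the start (chr19:19383244-19384550) had 5.46, and a second one of 5.52 lay 1200 to 2429 bp before the start. Both H3K27ac peaks sat near percentile 66, and acetylation at the start was the weakest among the 5 acetylated starts. H3K4me1 came within 140 bp of the start upstream (7.44, percentile 94.7) and 499 bp downstream (5.65), leaving 638 bp between.

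Past the end of TM6SF2 a run of H3K4me1 peaks followed without H3K4me3. There were 5 of them, between 11.3 and 24.0 kb from the start, with signal values from 3.08 to 5.70, of which 2 overlapped the 2 weak H3K27ac peaks of 2.29 and 1.95. Within the gene only H3K4me1 was listed beyond the promoter, as a single peak of 3.37 some 4.07 kb from the start. NCAN and HAPLN4, genes of the brain's extracellular matrix, are the coding neighbours downstream in RefSeq, and SUGP1, a splicing factor gene, the neighbour upstream.

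MBOAT7 had the strongest acetylation of any member and lay among several promoters. The H3K27ac peak over its start (chr19:54692088-54696720, 4633 bp) had a signal value of 50.7. H3K4me3 (chr19:54692002-54696651, 46.1) had almost the same borders. Their summits fell on opposite sides of the start, 547 bp before it for H3K27ac and 829 bp inside the gene for H3K4me3. H3K4me1 left 2770 bp around the start free, with flanks of 6.50 upstream and 5.05 downstream. RefSeq places TSEN34, a gene for transfer RNA splicing, next to MBOAT7 upstream on the other strand. Peaks carry no strand, so the share of either gene in this domain cannot be told apart.

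Further promoters and an enhancer-like peak lay around MBOAT7. Upstream, H3K4me3 of 40.8 with H3K27ac of 21.6 stood 9.96 to 14.5 kb from the start, beside an H3K27ac peak of 11.9 without H3K4me3. The last was inside an H3K4me1 peak of 10628 bp (chr19:54705216-54715843, 7.66), the strongest H3K4me1 peak of this locus. Past the gene end, H3K4me3 peaks of 29.2 and 27.2 with H3K27ac of 18.1 and 26.2 lay 28.7 to 31.7 kb from the start, and a weak pair of 4.02 and 2.12 lay just past the gene. Within the gene acetylation was weak, at 2.58, the only H3K27ac member that overlapped neither methylation. Coding neighbours in RefSeq are TSEN34, RPS9 and LILRB3 upstream and TMC4, LENG1 and CNOT3 downstream. Beyond the region on the LILRB3 side, LILRB3 being a receptor gene of white blood cells, the next H3K27ac peak was 157203 bp away and the next H3K4me3 peak 202680 bp.

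At GCKR, the glucokinase inhibitor, the promoter marks lay mostly before the gene. The H3K4me3 peak (chr2:27716526-27720497, 3972 bp, signal value 43.6) reached 3180 bp upstream and only 791 bp into the gene. Its summit was 1941 bp upstream of the start. H3K27ac (chr2:27716215-27720823, 21.3) spanned 3491 bp before to 1117 bp after, but had its summit 182 bp upstream, much nearer the start. RefSeq gives FNDC4, on the opposite strand, as the coding gene next to GCKR upstream, and the peaks do not tell which gene they belong to. H3K4me1 was interrupted for just 168 bp at the start, between peaks of 3.71 and 3.83 that were both overlapped by the wide H3K4me3 peak.

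A separate promoter-like domain lay 6.01 to 7.99 kb before GCKR, with H3K4me3 of 16.4 and H3K27ac peaks of 5.89 and 5.86. IFT172, a gene of ciliary transport, is the other coding neighbour on that side. Inside and past GCKR no acetylation was listed beyond the promoter. The gene interval held 7 H3K4me1 peaks (2.54 to 4.03). Of these, 2 (3.83 and 4.01) belonged to the promoter, since they overlapped the H3K27ac peak over the start. The rest overlapped no other mark. Past the gene end lay 2 more of 3.09 and 4.08, at 41.6 and 52.5 kb from the start. Outside the promoter the GCKR gene body was therefore marked by H3K4me1 alone, with only the peak of 4.03 above the list median of 3.42.

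**Figure D2:**
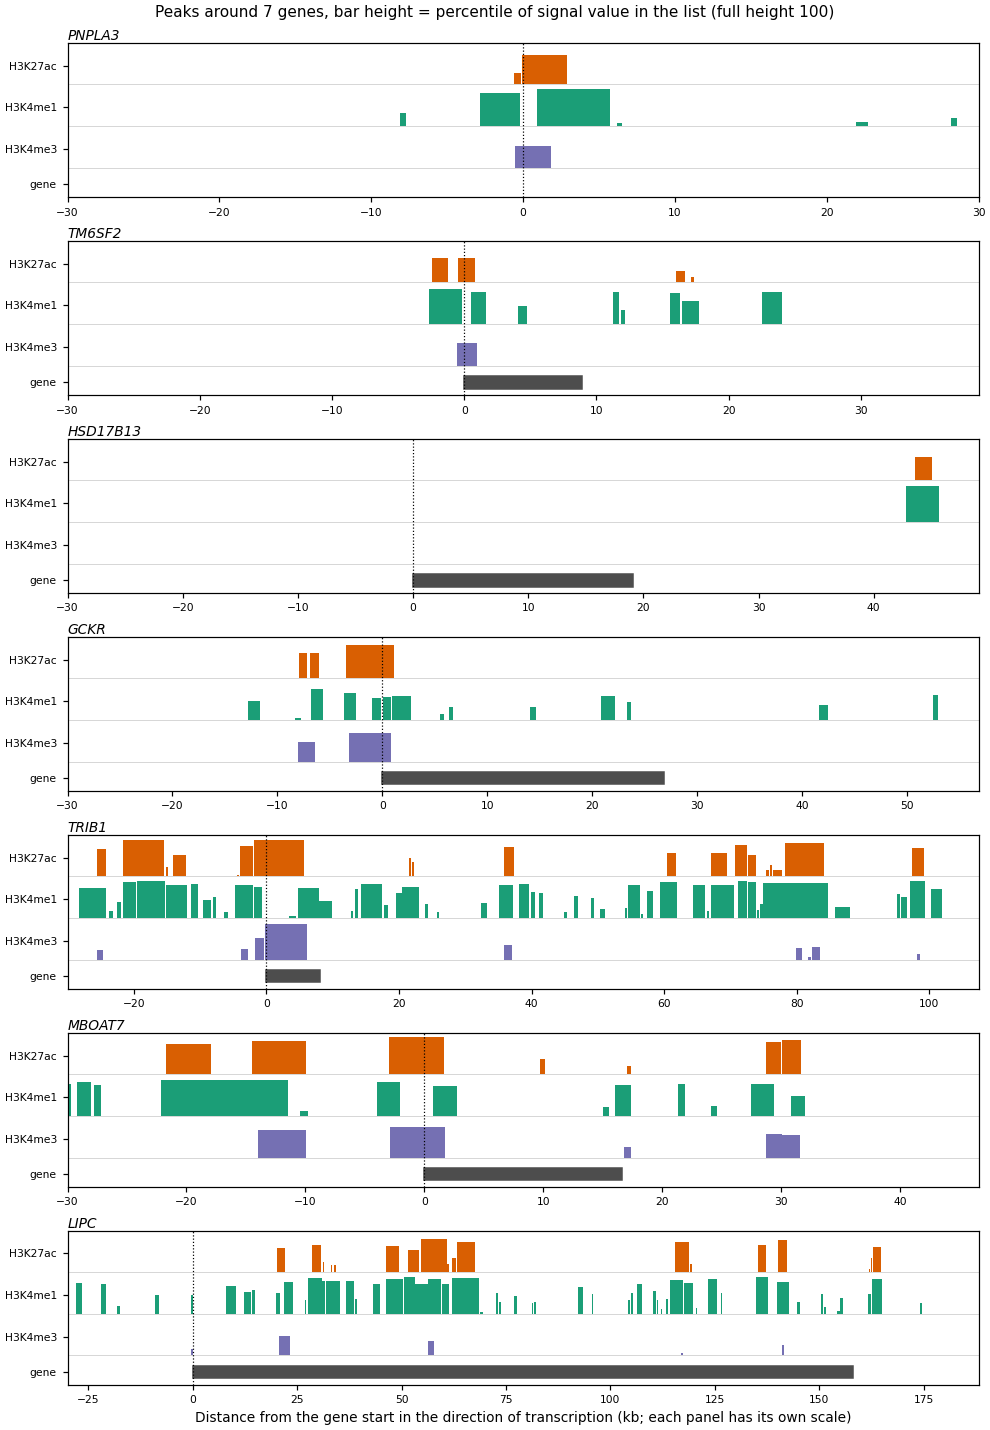
All 223 peaks by distance from the gene start in the direction of transcription (x axis, kb, a scale of its own for each locus), with bar height giving the percentile of signal value in the list and the grey bar the gene (no gene end was used for PNPLA3). TRIB1, MBOAT7 and LIPC have peaks spread along their regions, and the HSD17B13 region holds 2 peaks.

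TRIB1 had the widest H3K27ac and H3K4me3 peaks over a gene start. H3K27ac over the start (chr8:126440634-126448276, signal value 41.7) was 7643 bp wide and ran from 1929 bp before to 5713 bp after. H3K4me3 (chr8:126442406-126448637, 61.0) was 6232 bp wide, began 157 bp before the start and covered most of the gene of 8085 bp. An additional H3K4me3 peak of 22.2 stood just upstream, 338 to 1692 bp before the start. H3K4me1 left 4185 bp around the start free: the flanks were 717 bp upstream and 3469 bp downstream, and the latter was a weak peak of 2.22 (percentile 4.31).

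Acetylation at TRIB1 continued into the flanking DNA, where RefSeq lists no coding neighbour within 30 kb. Peaks of the locus separated by at most 12.5 kb, a distance chosen after the data had been seen, formed 5 groups. By the same spacing the 7 H3K27ac peaks of MBOAT7 formed 1 group of 53.5 kb, longer than any at TRIB1. The TRIB1 group around the start spanned 31.3 kb, from 25.6 kb before to 5.71 kb after, with 7 H3K27ac peaks and 14 H3K4me1 peaks. Its second strongest H3K27ac peak (chr8:126420866-126427062, 37.6, percentile 96.6) overlapped no H3K4me3 and was the strongest of the 33 enhancer-like members at all loci. Another group lay 60.4 to 84.1 kb past the start and held 8 H3K27ac and 9 H3K4me1 peaks. Its strongest acetylated peak (chr8:126520806-126526676, 5871 bp) had 22.6, and the strongest H3K4me1 peak of the locus (chr8:126513714-126514999, 10.8, percentile 99.3) also fell there. The other 3 groups were a pair of peaks at 21.4 to 22.3 kb with a maximum of 3.12, 1 peak at 35.8 kb with 11.0, and 1 at 97.4 kb with 8.58.

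H3K4me3 away from the TRIB1 promoter was frequent and weak. Of the 9 H3K4me3 peaks of the locus 7 had a signal value below 10, from 1.96 to 6.72, and each lay inside acetylated DNA, with H3K27ac values of 7.27 or more. H3K4me1 covered 56.1% of the TRIB1 region and H3K27ac 28.3%. Among 22081 consecutive windows of the same length, 0.231% and 0.901% were covered at least as much. H3K4me3 covered 10.1%, which 1.87% of windows reached. The TRIB1 region alone was extended past 30 kb, and these shares are a description with no test. The windows were laid along full chromosome lengths and not around genes, so they give no comparison with other gene regions.

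LIPC differed from the other marked genes, since the start used for the region was weakly marked. An H3K4me3 peak of 474 bp (chr15:58702603-58703076, signal value 2.77, percentile 18.3) and an H3K4me1 peak of 642 bp (chr15:58702450-58703091, 3.41) lay over it, with no H3K27ac nearer than 20.2 kb. Much stronger promoter marks lay inside the interval. The strongest H3K4me3 peak of the locus (chr15:58723547-58726127, 2581 bp, 14.4) stood 20.6 to 23.2 kb past the start, with H3K27ac of 4.86 from 20.2 to 22.2 kb. RefSeq's model of LIPC is 137854 bp long, 20345 bp shorter than the interval of 158199 bp, whereas for the 5 other genes with an interval the lengths differ by 462 bp or less. Whether RefSeq's start falls in that peak was not tested, since the builds differ. H3K4me1 flanked the inner domain at 3.59 upstream and 5.49 downstream.

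The body of LIPC carried a long row of acetylated peaks, most of them enhancer-like as listed. The locus had 18 H3K27ac peaks, 15 of them within the gene. Of the 18, 14 were enhancer-like (77.8%, against 59.8% of the list), among them the 3 past the gene end. These 14 had a median signal value of 2.49 (1.83 to 11.9), against 3.15 for the whole list. The peaks of 23.0, 17.4 and 13.4, the strongest of the locus, were promoter-like. With peaks joined within 1000 bp the locus had 9 H3K27ac peaks. By the spacing used at TRIB1 the 18 peaks as listed formed 4 groups. The first spanned 47.3 kb, from 20.2 to 67.5 kb, with 11 H3K27ac and 15 H3K4me1 peaks. Its strongest peak (chr15:58757647-58763828, 6182 bp) had 23.0, above the 4.86 at the inner promoter-like domain, so acetylation was stronger inside the gene than at its strongest H3K4me3. A gap of 48.0 kb without H3K27ac followed, which held 15 H3K4me1 peaks with signal values from 2.23 to 4.96. The later groups lay at 115.5 to 119.5 kb with a maximum of 13.4, at 135.3 to 142.2 kb with 17.4, and past the gene end at 162.0 to 164.9 kb with 5.71. The strongest H3K4me1 peak of the locus (chr15:58837789-58840701, 9.06, percentile 98.0) overlapped the group with 17.4.

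As at TRIB1, weak H3K4me3 lay inside strong acetylation at LIPC. Beside the inner domain, 3 H3K4me3 peaks of 6.25, 2.01 and 4.09 sat inside H3K27ac peaks of 23.0, 13.4 and 17.4, which therefore counted as promoter-like. H3K4me1 covered 33.7% of the LIPC region and H3K27ac 15.1%, and 2.60% and 4.60% of 13904 windows of that length were covered as much. For H3K4me3 the share was 2.59%, which 21.6% of windows reached. Here too the windows were laid along full chromosome lengths and not around genes. LIPC-AS1, a non-coding gene, overlaps LIPC on the other strand, and the peaks do not separate them. ADAM10 is the coding neighbour downstream in RefSeq, and the peaks past the end of LIPC do not tell which gene they belong to.

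**Figure D3:**
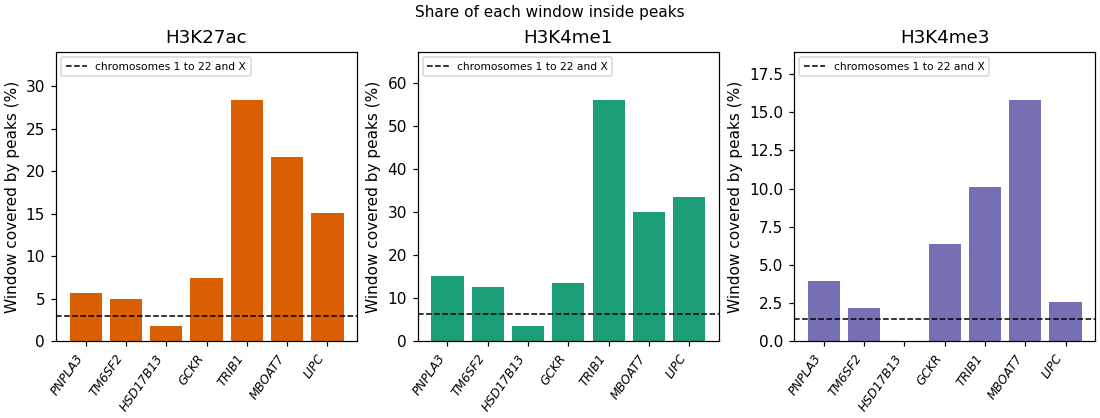
Share of each region inside peaks of each list (y axis, %), with the dashed line giving the share of chromosomes 1 to 22 and X (3.04%, 6.47% and 1.49%). TRIB1 is highest for H3K27ac and H3K4me1, MBOAT7 for H3K4me3 at 15.8%, and HSD17B13 lies below the line in each panel.

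Across the 7 loci, with peaks as listed, the shares of enhancer-like H3K27ac and of H3K4me1 alone were near those of the lists. A larger share of H3K4me3 members than of the list carried all 3 marks. Of the 55 H3K27ac members 33 (60.0%, 95% Wilson interval 46.8 to 71.9) were enhancer-like, that is, overlapped H3K4me1 and not H3K4me3, against 59.8% of the list. Promoter-like members, those that overlapped H3K4me3, numbered 21 (38.2%, 26.5 to 51.4), against 31.7%, and 1 member overlapped neither, against 8.52%. The classes depended on how peaks were delimited. With peaks joined within 1000 bp, 17 of 32 members (53.1%) were promoter-like, against 39.7% of the joined list. Enhancer-like were 14 (43.8%), against 54.5%, so the larger class changed. With 200 bp to either side of summits 14 of 55 (25.5%) were promoter-like, 18 (32.7%) enhancer-like and 23 (41.8%) neither. In the list these shares were 21.2%, 39.8% and 39.0%. H3K4me1 was overlapped by 54 of the 55, against 87.4% of the list. Of the H3K4me1 members 90 (62.1%, 54.0 to 69.6) overlapped neither other mark, against 61.6%. H3K4me3 members overlapped both other marks in 22 of 23 cases (95.7%, 79.0 to 99.2), against 74.1%. They overlapped H3K27ac in the same 22, against 77.5%, the exception being the weak peak over the LIPC start. All these intervals cover counting error only and treat neighbouring peaks as independent. The H3K4me3 members are not independent, since 9 of the 23 were at TRIB1, so their difference from the list was not tested. The balance differed from gene to gene, on small counts at most loci. LIPC had 14 enhancer-like and 4 promoter-like H3K27ac peaks, TRIB1 13 and 6, TM6SF2 3 and 1, and HSD17B13 1 and 0. MBOAT7 had 1 and 5, GCKR 1 and 3, and PNPLA3 0 and 2. The promoter-like share at TRIB1, 31.6%, was near the 31.7% of the list.

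Acetylation and H3K4me3 were on the whole stronger over gene starts than elsewhere. H3K4me1 lay over only 1 start, that of LIPC, which is too few for such a comparison. The 5 H3K27ac peaks over a start had a median signal value of 21.3, compared with 5.86 for the 13 upstream, 4.42 for the 16 within a gene and 3.72 for the 21 past a gene end. For H3K4me3 the median was 35.7 over the 6 starts, compared with 16.4 for the 5 upstream, 5.17 for the 4 within a gene and 4.83 for the 8 past a gene end. H3K4me1 had 3.41 over the LIPC start, and medians of 5.18 for the 30 upstream, 3.71 for the 60 within a gene and 4.09 for the 50 past a gene end. At PNPLA3, where no gene end was used, 4 further H3K4me1 peaks lay downstream of the start, with a median of 2.56 and a maximum of 12.4. These medians mix loci of unequal size, and 15 of the 16 H3K27ac peaks within a gene were at LIPC. Single loci departed from the order: LIPC H3K4me3 had 2.77 at the start and a median of 5.17 within the gene, TM6SF2 H3K27ac had 5.46 at the start and 5.52 upstream, and MBOAT7 H3K27ac had a higher median past the gene end (18.1) than upstream (16.8). Over all members the median was 4.86 for H3K27ac, against 3.15 in the list, and 3.95 for H3K4me1, against 3.42. The H3K4me3 members had a median of 6.72 against 13.3 in the list, with 11 of the 12 members below 10 at TRIB1 and LIPC.

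**Figure D4:**
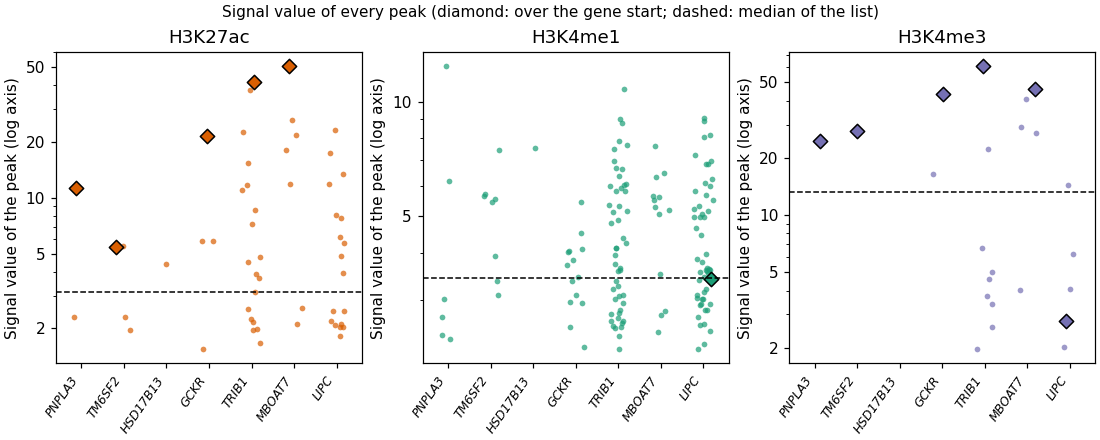
Signal value of every member peak (y axis, log scale) by locus and list, with diamonds for peaks over a gene start and the dashed line for the median of the list. The diamonds of H3K27ac run from 5.46 at TM6SF2 to 50.7 at MBOAT7, and the H3K4me3 diamond of LIPC, at 2.77, is far below the other 5.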

How the data were processed

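The values were 3 deposited peak lists, 1 per mark, which by their names pool 3 replicates. Per the submitters' processing notes MACS2 and hg19 were used. Aligner, threshold and use of the control are not given in the sources used here. The deposited lists give for each peak a signal value, whose reference is not stated, the −log10 of its q-value and its summit. The deposited score was not used. Library depth is unknown.

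Gene intervals, strands and regions came with the choice of loci. The members, gene list, motifs and alternatives were chosen with earlier results of these data known. All 7 genes are named, with the peak over or nearest to each start and the strongest peak per list. Other peaks given singly were chosen after their values were seen. Shared regions have at least 1 bp in common, and percentiles are shares of a list at or below a value. Chromosome lengths (GenomeInfoDb 1.38.1) were passed by 0 of 69 list and chromosome pairs. Without replicate values no test was run. A further planned motif is not reported here. RefSeq tables are GRCh38 and gave names, neighbours, lengths and promoters only. Marker genes of liver and of other cell types, and further lipid genes, were not analysed here for want of gene starts in hg19. Scripts (Python 3.11.15, numpy 2.4.6, pandas 2.3.3, matplotlib 3.10.9) were tested on simulated regions. Alternatives kept peaks whose −log10 q-value reached 5, or only the 50% with higher signal values; others were joining within 1000 bp, regions of 10 and 100 kb, summits inside the region, 50% of a region covered, 200 bp around summits, and starts inside or within 2 kb of a peak.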

Additional observations from a re-analysis of the deposited data

How the results depend on the processing

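No paired analysis was possible because the lists pool the replicates, and no replicate could be left out for the same reason. Of 83 alternative values over 13 results, 59 stayed within 1.5 times the value reported and 24 moved further. The starts with H3K27ac numbered 5 under every alternative run, and H3K4me3 starts 6, or 5 (without LIPC) in the stronger 50% of each list. With the start itself required inside a peak, H3K4me1 starts fell to 1. The stronger 50% of each list gave 34 H3K27ac, 92 H3K4me1 and 11 H3K4me3 members, 11 promoter-like, 0 neither and 49 H3K4me1-only, with median signal values of 9.81 for H3K27ac and 27.8 for H3K4me3. Joining within 1000 bp gave 32 H3K27ac and 76 H3K4me1 members, 14 enhancer-like and 44 H3K4me1-only, with a median H3K27ac value of 7.95, so that promoter-like members, at 17, were then the larger class. Regions of 100 kb gave 104, 258 and 53 members, 49 promoter-like, 6 neither and 147 H3K4me1-only, with a median H3K4me3 value of 12.0. With 50% of a region covered, 2 H3K27ac members overlapped neither methylation. With 200 bp around summits it was 23, beside 18 enhancer-like. Filters and larger regions change counts by construction. Counts per locus moved in 38 of 126 values.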

Other observations

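The widths of the promoter domains gave an order of their own. H3K4me3 over the start was 6232 bp wide at TRIB1, 4650 at MBOAT7, 3972 at GCKR, 2384 at PNPLA3, 1520 at TM6SF2 and 474 at LIPC, at width percentiles 99.2, 96.4, 93.1, 69.1, 49.7 and 11.2 of the list. The gap in H3K4me1 around the start did not follow this order in each case: it was 4185 bp at TRIB1, 2770 at MBOAT7, 1181 at PNPLA3, 638 at TM6SF2 and 168 at GCKR. GCKR thus combined a wide H3K4me3 domain with the shortest gap at the start among these 5. The summit of that domain, 1941 bp upstream, was not in this gap. It fell in another gap of H3K4me1, from 2524 to 1017 bp before the start. The peaks do not tell whether the domain belongs to GCKR or to FNDC4. The widest H3K4me1 peaks of all members were 10628 bp upstream of MBOAT7 and 9807 bp past TRIB1 (chr8:126517507-126527313).

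How strongly the LIPC start was marked depends on which start is used. At the start of the interval H3K4me3 was 2.77 and H3K27ac was not listed within 20.2 kb. At the inner domain H3K4me3 was 14.4 (percentile 51.3) and H3K27ac 4.86 (percentile 63.5), below the values at the starts of the other acetylated genes (at least 24.7 and 5.46). At its strongest H3K4me3 peak, LIPC therefore also had lower values than those 5 starts. For H3K27ac the difference from TM6SF2 (5.46) was small and could not be set against the spread between libraries. Whether the inner domain holds a start was not tested, and the strongest H3K27ac peak of LIPC, deeper in the gene, had 23.0 (percentile 89.9).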
